A study of Mus musculus with 1 sample.

Results

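The genes described here are 33 genes of fatty acid oxidation and ketone body metabolism, out of 32285 genes listed in the table. They were selected by symbol in the gene table and not by a limit on any measured value. Earlier results of these data were known when they were chosen. All 33 symbols and Ensembl identifiers matched the GENCODE M21 annotation of the mouse genome build GRCm38. The study asked what loss of SCAP, the escort protein that carries SREBP transcription factors to the Golgi, does to the cells of the pancreas. The 1 library used was a droplet single-cell RNA sequencing library of pancreas from *Scap* f/f mice, which carry both floxed *Scap* alleles and are titled wildtype, at 2 weeks of age. Between 5 and 6 pancreata were pooled, so animals cannot be told apart, and the library of *Scap* Δpanc mice, in which *Pdx1-Cre* deletes the gene in the pancreatic lineage, was not analysed here.

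Long-chain fatty acids enter mitochondria as acylcarnitines. CPT1 makes them at the outer membrane, a malonyl-CoA sensitive step, the carnitine-acylcarnitine carrier SLC25A20 moves them inward, and CPT2 turns them back into acyl-CoA. Each round of beta-oxidation then runs through an acyl-CoA dehydrogenase, a hydratase, a hydroxyacyl-CoA dehydrogenase and a thiolase, with electrons passed to the respiratory chain by the electron transfer flavoproteins, while peroxisomes shorten very long and branched chains. Acetyl-CoA can be condensed to ketone bodies, chiefly in liver, and tissues that express the transferase OXCT1 can burn them. PPARα and its coactivator PGC-1α are the best known transcriptional activators of the pathway. Before weaning, mice live on milk, a diet rich in fat.

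The table held 51540177 UMIs (unique molecular identifiers, which count captured transcripts) over 11789 barcodes. Of these, 10947 barcodes, with a median of 2650 UMIs, had a total between 800 and 100000 and a mitochondrial share below 15%. Marker genes placed 9550 of them in 14 classes, of which 13 held at least 50 cells. The 33 genes together gave 51013 UMIs in the kept barcodes, 0.104% of the total, and single genes gave 28 to 5915 with a median of 973. Because digestive enzymes made up 45.5% of the UMIs of acinar-gated cells and under 3% elsewhere outside the acinar classes, levels are given as CPM, counts scaled to 1e6 UMIs outside 30 digestive enzyme genes. Intervals are exact 95% Poisson intervals for a level and exact conditional binomial intervals for a ratio, and both cover counting error only. There is 1 library, so no difference between classes was tested against replicates. A 3′ library counts 1 end of each transcript, so a level is not divided by transcript length.

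The classes were gated on marker lists, so the levels of those markers describe the classes and do not test their names. Duct-like cells held 1323 CPM of *Sox9*, 6730 CPM of *Spp1* and 276 CPM of *Krt19*, and mural cells, the smooth muscle cells and pericytes around vessels, held 8629 CPM of *Acta2* and 2870 CPM of *Myh11*. Markers of fat and muscle cells, which oxidize much fatty acid, were close to absent. Over all kept barcodes there were 95 UMIs of 5 adipocyte genes, 24 of 3 brown adipocyte genes and 89 of 5 muscle genes. The liver list of *Alb*, *Apoa1*, *Apoa2*, *Ttr* and *Cyp2e1* reached 679 CPM in duct-like cells, 290 CPM in acinar cells and 5.48 CPM in fibroblasts, and its part in the levels below was not tested.

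The summed level of the genes was highest in the pancreatic epithelium and lowest in blood cells. Duct-like cells held 1716 CPM (1634 to 1800, 50 cells), acinar cells that also carried duct markers 1562 CPM (1507 to 1619, 107 cells) and acinar cells 1449 CPM (1417 to 1481, 851 cells). The duct-marked acinar barcodes had a median of 21212 UMIs against 5258 in acinar cells, and whether they are doublets or carry free enzyme RNA was not tested. Mural cells, at 1436 CPM (1321 to 1558, 128 cells), and mesothelial cells, the lining of the organ surface, at 1416 CPM (1374 to 1458, 543 cells), had intervals that overlapped that of acinar cells. Fibroblasts, the largest class with 5654 cells, held 1163 CPM (1148 to 1179). Endothelial cells stood lower at 1006 CPM (939 to 1076, 146 cells), as did B cells at 897 CPM (828 to 970, 384 cells), T cells at 801 CPM (764 to 840, 933 cells) and dendritic cells at 555 CPM (459 to 664, 58 cells). Red blood cells, which lose their mitochondria, held 136 CPM (110 to 167), or 663 CPM with globin UMIs also left out of the total. Among the 13 classes of at least 50 cells, 14 of the 33 genes had their highest level in duct-like cells. The same share over all genes was not computed, so this count does not set these genes apart. Of all genes with at least 200 UMIs, 22.5% were at least 2-fold higher in duct-like cells than in fibroblasts.

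**Figure D1:**
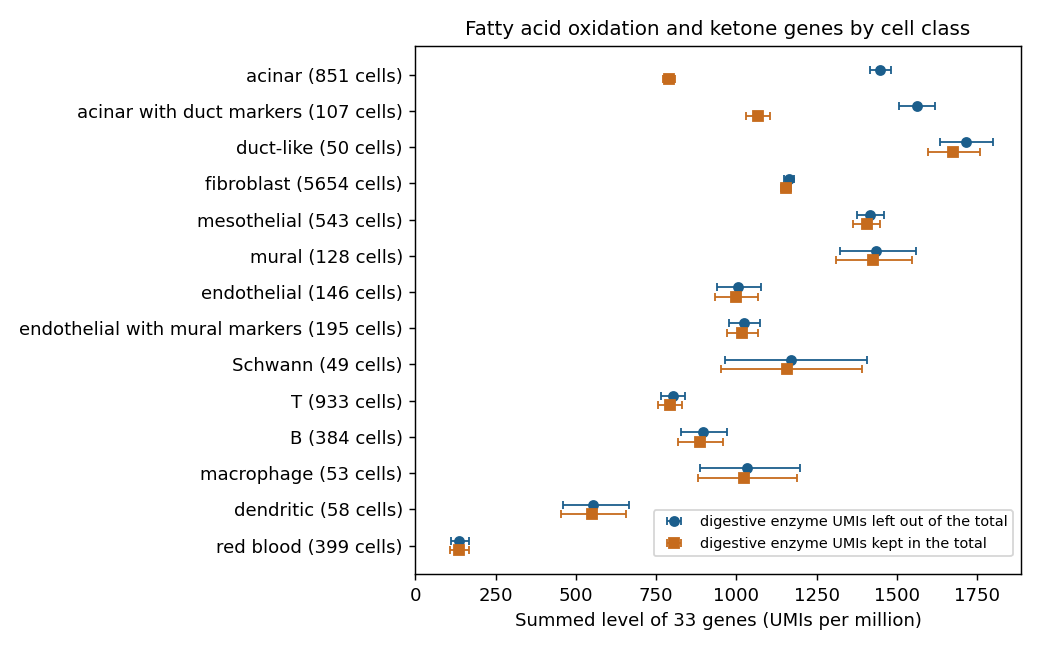
Summed level of the 33 genes in 14 gated classes, in CPM (horizontal axis), with (orange squares) and without (blue circles) digestive enzyme UMIs in the total. Bars are exact 95% Poisson intervals of counting error. The acinar classes move most with the choice of total, from 1449 to 790 in acinar cells.

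Against fibroblasts, the summed level was 1.47-fold in duct-like cells (1.40 to 1.55), 1.25-fold in acinar cells (1.21 to 1.28), 1.23-fold in mural cells (1.13 to 1.34), 0.864-fold in endothelial cells (0.806 to 0.926) and 0.689-fold in T cells (0.655 to 0.723). The macrophage ratio of 0.889 (0.762 to 1.03, 53 cells) had an interval that held 1. The acinar value depends on the total. With enzyme UMIs kept in, each acinar ratio is multiplied by 0.550, and the summed ratio becomes 0.684. It also rests on 2 genes: without *Hadh* and *Acat1* the acinar ratio was 1.04 (1.01 to 1.07), whereas the duct-like ratio was 1.53 (1.45 to 1.61). The duct-like ratio was 1.20 in the 27 duct-like cells with fewer than 10000 UMIs.

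A set of 17 citrate cycle genes, taken as a second measure of mitochondrial metabolism, was ordered differently. Its level against fibroblasts was 1.61-fold in duct-like cells (1.53 to 1.71), 1.46-fold in acinar cells (1.42 to 1.50) and 1.55-fold in mural cells (1.42 to 1.69). In T cells it was 1.19-fold (1.14 to 1.24) and in B cells 1.24-fold (1.15 to 1.34), where the fatty acid oxidation genes were at 0.689-fold and 0.771-fold. Endothelial cells had a citrate cycle ratio of 1.23 (1.15 to 1.31) and a fatty acid oxidation ratio of 0.864. In endothelial cells with mural markers these were 1.30 (1.24 to 1.36) and 0.880 (0.838 to 0.924). Lymphocytes and both endothelial classes thus held more citrate cycle transcript and less fatty acid oxidation transcript than fibroblasts. Of the UMIs outside digestive enzyme genes, mitochondrially encoded ones made up 1.80% in fibroblasts, 2.70% in T cells and 3.24% in mural cells. They made up 3.53% in acinar cells and 3.75% in duct-like cells. The part of this difference in the levels was not tested.

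Gene by gene, each of 6 classes was set against fibroblasts for the 27 members with at least 200 UMIs over the gated cells. *Cpt1b*, *Acad10*, *Acaa1b*, *Ehhadh*, *Bdh1* and *Ppara* fell under that minimum. In acinar cells 3 members were at least 2-fold higher (*Acad11*, *Hadh*, *Ppargc1a*), where 16.8% of all 11653 genes of that depth were, and 1 was at least 2-fold lower (*Cpt1c*), against 23.9% of all genes. In duct-like cells 8 were higher (*Slc25a20*, *Acadl*, *Acadm*, *Acad11*, *Hadha*, *Hadh*, *Eci1*, *Ppargc1a*) and 2 lower (*Cpt1c*, *Oxct1*), against 22.5% and 15.9% of all genes. The median ratio of the 27 members was 1.74 in duct-like cells, where the median of all genes was 1.28, and 0.975 in acinar cells, where it was 0.931. The acinar members were therefore centred close to the other genes, with a few far above.

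Mural cells had 4 members higher (*Slc25a20*, *Acadm*, *Hadh*, *Ppargc1a*) and 2 lower (*Cpt2*, *Acad11*), with 14.7% and 21.6% of all genes past the same limits. The lower mural calls rest on 2 UMIs of *Cpt2* and 0 of *Acad11*, in a class where 3 UMIs would be 7.49 CPM. Endothelial cells had 2 higher (*Slc25a20*, *Ppargc1a*) and 2 lower (*Cpt1c*, *Acat1*), against 18.6% and 15.7%. In macrophages 2 were higher (*Eci1*, *Acox3*) and 6 lower (*Cpt2*, *Acadvl*, *Eci2*, *Etfdh*, *Acat1*, *Ppargc1a*), against 18.3% and 35.6%. *Cpt2* and *Ppargc1a* had 0 UMIs in macrophages, *Acadvl* and *Etfdh* 1 each and *Eci2* 2. There 3 UMIs would be 17.5 CPM, above the fibroblast levels of *Cpt2*, *Etfdh* and *Ppargc1a*. The calls for those genes do not place macrophages below fibroblasts. T cells had 0 members higher and 6 lower (*Cpt1c*, *Cpt2*, *Echs1*, *Eci2*, *Acaa1a*, *Acat1*), against 17.4% and 31.4% of all genes. The share of members past 2-fold was below that of all genes in both directions in acinar, endothelial, macrophage and T cells, and in the higher direction it was above it in duct-like cells, at 29.6%.

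**Figure D2:**
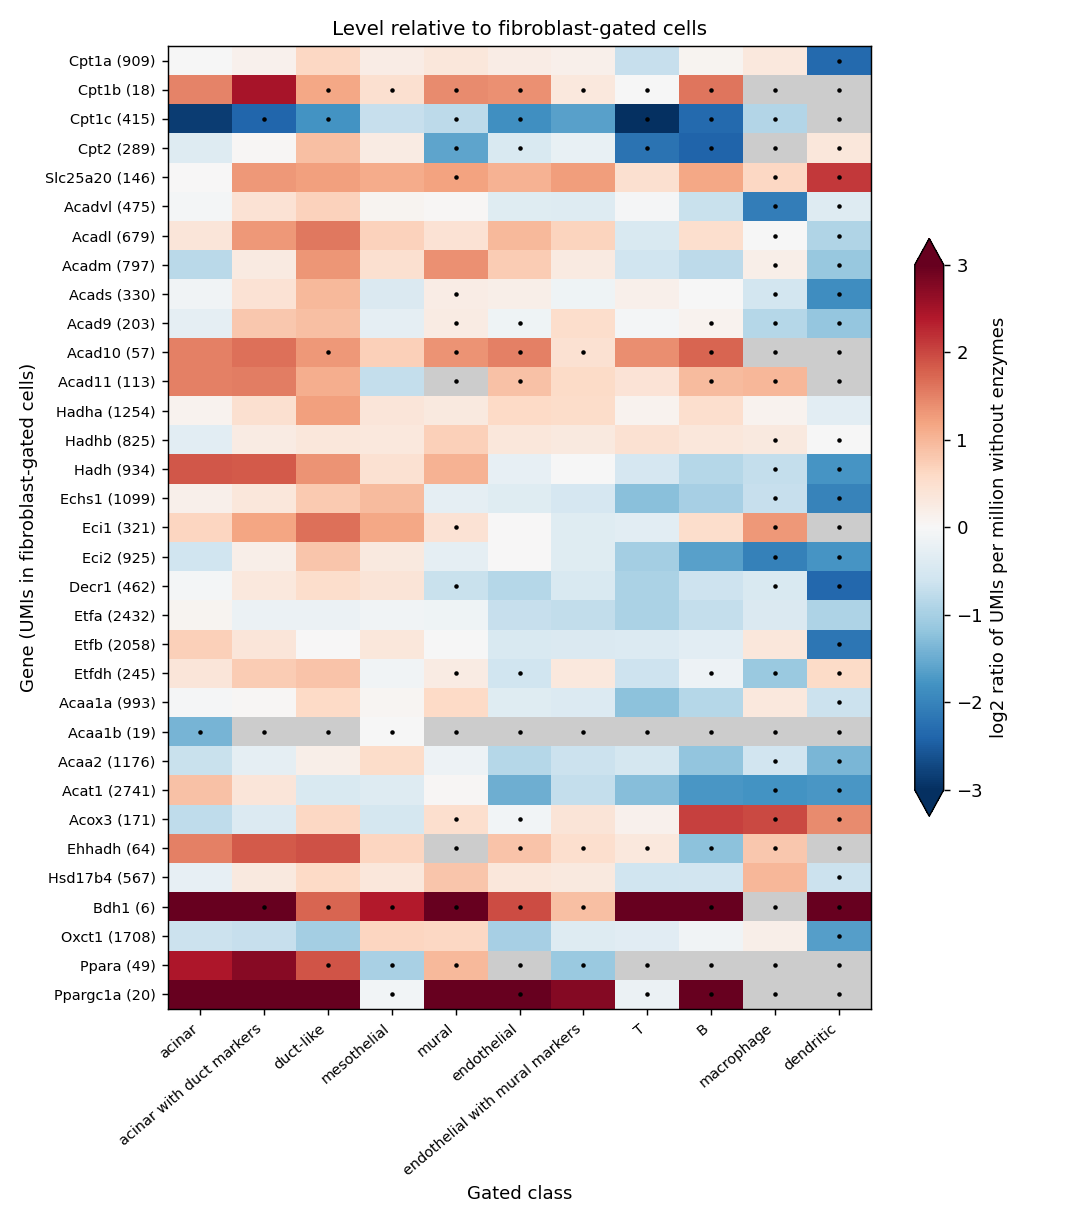
Level of each of the 33 genes (rows, with their UMIs in fibroblast-gated cells) relative to fibroblasts in 11 gated classes (columns), as the log2 ratio of CPM without enzymes. Red is higher and blue is lower than in fibroblasts, grey marks a gene with 0 UMIs in a class, and a dot marks fewer than 10 UMIs. *Ppargc1a* is dark red in the epithelial, mural, endothelial and B columns, *Cpt1c* is blue in each column with UMIs, and most rows are pale.

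Of the carnitine shuttle, the liver-type *Cpt1a* was expressed broadly. It stood between 46.9 and 72.7 CPM in acinar, fibroblast, mesothelial, mural, endothelial, B, macrophage and both duct-marker classes, with 47.0 CPM in fibroblasts (44.0 to 50.2) and 46.9 CPM in acinar cells (41.3 to 53.1). T cells held less, 28.9 CPM (22.2 to 37.0). *Cpt1b*, the muscle-type enzyme, had 57 UMIs over all gated cells, 14 of them in acinar cells and 18 in fibroblasts. These were 2.61 CPM in acinar cells (1.42 to 4.37) and 0.931 CPM in fibroblasts (0.552 to 1.47). Acinar cells thus stood 2.80-fold above fibroblasts (1.29 to 5.96), or 1.02-fold in cells with fewer than 10000 UMIs. Duct-marked acinar cells held 5.13 CPM of *Cpt1b* (2.46 to 9.43, 10 UMIs). *Cpt1c*, a neuronal paralog that resides in the endoplasmic reticulum and has little known catalytic activity, was the one member of the family that was highest in fibroblasts. It reached 21.5 CPM there (19.4 to 23.6, 415 UMIs), 13.3 CPM in mesothelial cells and 12.5 CPM in mural cells (5 UMIs), but 2.98 CPM in acinar cells (16 UMIs) and 1.84 CPM in T cells (4 UMIs). Fibroblasts stood 7.21-fold above acinar cells.

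The later steps of the shuttle differed in class. The carrier *Slc25a20* was at 7.55 CPM in fibroblasts and 7.63 CPM in acinar cells, and at 15.6 to 18.5 CPM in duct-like, duct-marked acinar, mesothelial, mural and endothelial cells. Dendritic cells held 32.9 CPM, although 42.9% of their 7 UMIs came from 1 cell. *Cpt2*, the inner membrane enzyme, was at 28.0 CPM in duct-like cells (18.5 to 40.8), 14.9 CPM in fibroblasts (13.3 to 16.8) and 11.4 CPM in acinar cells (8.68 to 14.6), whereas T cells held 3.22 CPM (1.29 to 6.62, 7 UMIs) and B cells 2.83 CPM (2 UMIs). T cells stood below fibroblasts for both transferases, 0.616-fold for *Cpt1a* (0.469 to 0.795) and 0.215-fold for *Cpt2* (0.0857 to 0.449), but not for the carrier *Slc25a20*, which was at 10.6 CPM, 1.40-fold of fibroblasts (0.860 to 2.18).

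The acyl-CoA dehydrogenases open each round and divide the work by chain length. *Acadm*, the medium-chain enzyme, separated the 2 epithelial classes most. It was at 23.4 CPM in acinar cells (19.5 to 27.9, 126 UMIs) and 103 CPM in duct-like cells (83.6 to 125, 99 UMIs), a 4.39-fold difference (3.34 to 5.75), and the duct-marked acinar cells stood between, at 49.8 CPM (40.3 to 60.7). Mural cells held 107 CPM (77.7 to 145) and fibroblasts 41.2 CPM (38.4 to 44.2). Acinar cells thus stood below fibroblasts for this enzyme, at 0.569-fold (0.468 to 0.687).

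The long-chain enzyme *Acadl* was highest in duct-like cells among classes of at least 50 cells, at 106 CPM (86.4 to 129). Duct-marked acinar cells held 86.2 CPM, acinar cells 45.4 CPM (39.9 to 51.5) and fibroblasts 35.1 CPM (32.5 to 37.9). The duct-like ratio of *Acadl* to fibroblasts, 3.02, was 1.93 in cells with fewer than 10000 UMIs. *Acadvl*, the very long-chain enzyme of the inner membrane, was at 39.5 CPM in duct-like cells, 33.3 CPM in duct-marked acinar cells, 19.2 to 26.0 CPM in acinar, fibroblast, mesothelial, mural, endothelial and T cells, 15.6 CPM in B cells and 5.84 CPM in macrophages (1 UMI). *Acads*, the short-chain enzyme, was at 33.2 CPM in duct-like cells (22.7 to 46.9) and 17.1 CPM in fibroblasts (15.3 to 19.0). *Acad9*, which also helps to assemble respiratory complex I, followed the same order with 19.7 and 10.5 CPM. *Acad11*, a dehydrogenase found with peroxisomes and mitochondria, did not differ between the epithelial classes beyond counting error, with a ratio of duct-like to acinar cells of 0.744 (0.371 to 1.36). *Acad11* held 16.7 CPM in acinar cells (13.5 to 20.6), 12.5 CPM in duct-like cells (6.44 to 21.8) and 5.84 CPM in fibroblasts (4.82 to 7.02), with 0 UMIs in mural cells, where 3 UMIs would be 7.49 CPM. *Acad10* was low throughout, with 8.37 CPM in acinar cells (45 UMIs) and 2.95 CPM in fibroblasts (57 UMIs).

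The mitochondrial trifunctional protein carries out the last 3 steps for long chains, with the hydratase and dehydrogenase on its α subunit, *Hadha*, and the thiolase on its β subunit, *Hadhb*. The genes lie head to head on chromosome 5, *Hadha* at 30118304 to 30155162 on the minus strand and *Hadhb* at 30155248 to 30184593 on the plus strand. The 85 bases between their annotated starts, shown because both subunits are transcribed away from it, overlap no annotated exon and read as follows on the plus strand of GRCm38.p6 in the RefSeq promoter table (chr5:30155163-30155247).
Hadha and Hadhb: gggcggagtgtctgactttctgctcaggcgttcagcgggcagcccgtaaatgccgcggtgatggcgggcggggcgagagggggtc

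Although the genes share this stretch, their UMIs did not keep 1 ratio across classes. *Hadha* stood at 153 CPM in duct-like cells (129 to 179), 98.4 CPM in endothelial cells, 69.8 CPM in acinar cells (62.9 to 77.2), 69.4 CPM in T cells and 64.8 CPM in fibroblasts (61.3 to 68.5). The duct-like ratio of *Hadha* to fibroblasts was 2.35 (1.97 to 2.80), or 1.78 in cells with fewer than 10000 UMIs. *Hadhb* was flatter, at 54.0 CPM in duct-like cells (40.3 to 70.8), 58.3 CPM in T cells, 42.7 CPM in fibroblasts (39.8 to 45.7) and 34.2 CPM in acinar cells (29.5 to 39.6). UMIs of *Hadha* to *Hadhb* were 2.83 to 1 in duct-like cells (2.05 to 3.96), 2.04 to 1 in acinar cells (1.70 to 2.44), 1.52 to 1 in fibroblasts (1.39 to 1.66) and 1.19 to 1 in T cells (0.933 to 1.52). The duct-like and acinar intervals lay above that of fibroblasts, and the mural ratio of 1.14 (0.667 to 1.97, 60 UMIs in all) could not be placed.

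*Hadh*, the mitochondrial dehydrogenase for short and medium 3-hydroxyacyl-CoA, which is also known to restrain insulin release in beta cells through glutamate dehydrogenase, was an acinar-high gene. It held 176 CPM in acinar cells (165 to 188, 948 UMIs), 173 CPM in duct-marked acinar cells (155 to 193) and 124 CPM in duct-like cells (102 to 148). Mural cells held 99.9 CPM (71.4 to 136), mesothelial cells 66.5 CPM and fibroblasts 48.3 CPM (45.2 to 51.5), and T cells 34.0 CPM (26.7 to 42.7). Acinar cells stood 3.65-fold above fibroblasts (3.33 to 4.0) and 5.19-fold above T cells (4.09 to 6.67). In red blood cells, taken as the level of free RNA, *Hadh* had 2 UMIs, which is 14.3 CPM with globin UMIs also left out of the total (1.73 to 51.5).

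The matched hydratase and the helper enzymes did not follow *Hadh*. *Echs1*, the short-chain hydratase, was highest in mesothelial cells, at 109 CPM (98.0 to 122), with 98.7 CPM in duct-like cells, 62.9 CPM in acinar cells, 56.8 CPM in fibroblasts and 23.9 CPM in T cells (17.8 to 31.3). Mesothelial cells stood 1.92-fold above fibroblasts (1.70 to 2.18). The isomerases that handle unsaturated chains, *Eci1* and *Eci2*, were both highest in duct-like cells among classes of at least 50 cells. *Eci1* was at 51.9 CPM in duct-like cells (38.5 to 68.5), 37.3 CPM in mesothelial cells, 25.9 CPM in acinar cells and 16.6 CPM in fibroblasts (14.8 to 18.5). *Eci2* was at 85.2 CPM in duct-like cells (67.7 to 106), 47.8 CPM in fibroblasts (44.8 to 51.0) and 31.8 CPM in acinar cells (27.2 to 37.0). Over all depths, acinar cells thus lay above fibroblasts for *Eci1* and below them for *Eci2*. The *Eci1* excess depended on deep cells and on the total. Its ratio of acinar cells to fibroblasts was 1.07 in cells with fewer than 10000 UMIs, and 0.857 with enzyme UMIs in the total. *Decr1*, the dienoyl-CoA reductase, was at 34.3 CPM in duct-like cells, 23.9 CPM in fibroblasts, 22.9 CPM in acinar cells and 12.4 CPM in T cells.

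The electron transfer flavoprotein is a heterodimer, and its subunits gave more UMIs than any other member but *Acat1*. *Etfa* held 133 CPM in acinar cells (123 to 143), 126 CPM in fibroblasts (121 to 131), 111 CPM in duct-like cells and 65.2 CPM in T cells (54.9 to 76.9). *Etfb* held 175 CPM in acinar cells (164 to 186), 106 CPM in fibroblasts (102 to 111), 108 CPM in duct-like cells and 79.9 CPM in T cells. Acinar cells had 0.759 UMIs of *Etfa* for each of *Etfb* (0.688 to 0.838) and fibroblasts 1.18 (1.11 to 1.25), so the subunit with more UMIs differed between the classes. *Etfdh*, which passes the electrons on to ubiquinone, was low, at 22.8 CPM in duct-like cells, 16.2 CPM in acinar cells and 12.7 CPM in fibroblasts.

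Of the thiolases, mitochondrial *Acaa2* was highest in mesothelial cells among classes of at least 50 cells, at 88.6 CPM (78.4 to 99.8). Fibroblasts held 60.8 CPM (57.4 to 64.4), mural cells 54.9 CPM (34.4 to 83.2) and acinar cells 38.5 CPM (33.4 to 44.1), a ratio of acinar cells to fibroblasts of 0.633 (0.544 to 0.735). Peroxisomal *Acaa1a* was even across acinar cells (50.1 CPM), fibroblasts (51.3 CPM) and mesothelial cells (53.2 CPM). It held 77.9 CPM in duct-like cells (61.3 to 97.6), 77.4 CPM in mural cells (52.6 to 110) and 22.0 CPM in T cells (16.3 to 29.2). Its ratio to fibroblasts was 1.52 in duct-like cells (1.18 to 1.92), or 0.677 in those with fewer than 10000 UMIs. Its mural ratio to fibroblasts was 1.51 (1.02 to 2.15), while those of *Acaa2* and *Acat1* were 0.904 (0.564 to 1.37) and 1.02 (0.774 to 1.33). Its near copy *Acaa1b* had 24 UMIs over all gated cells, 19 of them in fibroblasts. Of the 100-base windows in the last 500 bases of *Acaa1a*, 22.4% also occur in *Acaa1b*, so both levels are uncertain, and the other 31 members shared no window with another counted gene.

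The peroxisomal members differed from one another. *Acox3*, an oxidase of branched chains, was highest in B cells, at 36.8 CPM (24.0 to 53.9, 26 UMIs), and macrophages, at 35.1 CPM (12.9 to 76.3, 6 UMIs), against 8.84 CPM in fibroblasts (7.57 to 10.3) and 5.21 CPM in acinar cells. B cells stood 4.16-fold above fibroblasts (2.64 to 6.31) while T cells, at 9.65 CPM, did not differ from them beyond counting error (1.09, 0.658 to 1.72). *Ehhadh*, the peroxisomal bifunctional enzyme and a classical PPARα target, was at 9.49 CPM in acinar cells (7.07 to 12.5), 11.8 CPM in duct-marked acinar cells, 12.5 CPM in duct-like cells and 3.31 CPM in fibroblasts (2.55 to 4.23), and 33.3% of the 12 duct-like UMIs came from 1 cell. *Hsd17b4*, the bifunctional enzyme for branched and very long chains, was at 58.4 CPM in macrophages (10 UMIs), 29.3 CPM in fibroblasts, 24.7 CPM in acinar cells and 19.3 CPM in T cells.

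The ketone body genes split between epithelium, stroma and lymphocytes. *Acat1*, the mitochondrial acetoacetyl-CoA thiolase, used in making and in burning ketone bodies and in isoleucine breakdown, gave the most UMIs of the 33 genes. It held 261 CPM in acinar cells (247 to 275, 1402 UMIs), 182 CPM in duct-marked acinar cells (164 to 202), 142 CPM in fibroblasts (136 to 147), 103 CPM in duct-like cells (83.6 to 125), 58.8 CPM in T cells and 42.4 CPM in B cells. Acinar cells stood 1.84-fold above fibroblasts (1.72 to 1.96), or 1.01-fold with enzyme UMIs in the total, and duct-like cells stood at 0.394-fold of acinar cells (0.318 to 0.483). *Oxct1*, the transferase that commits a tissue to ketone use, was ordered differently. It held 137 CPM in mesothelial cells (124 to 151), 135 CPM in mural cells (101 to 176), 88.3 CPM in fibroblasts (84.2 to 92.6), 56.9 CPM in acinar cells (50.7 to 63.7) and 43.6 CPM in duct-like cells (31.4 to 59.0). The number of *Acat1* UMIs for each of *Oxct1* was 4.58 in acinar cells (4.05 to 5.2), 2.36 in duct-like cells, 1.60 in fibroblasts (1.51 to 1.71) and 0.791 in mesothelial cells (0.684 to 0.916).

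*Bdh1*, the enzyme that interconverts acetoacetate and 3-hydroxybutyrate, was highest in T cells. They held 18.8 CPM (13.5 to 25.5) from 41 UMIs in 38 cells, B cells 7.07 CPM (5 UMIs), acinar cells 5.02 CPM (3.31 to 7.31, 27 UMIs) and fibroblasts 0.310 CPM (0.114 to 0.675, 6 UMIs). The T cell level was 60.7-fold that of fibroblasts (25.6 to 175) and 3.75-fold that of acinar cells (2.25 to 6.34). Red blood cells, the class used for free RNA, had 1 UMI of *Bdh1*. That is 1.47 CPM (0.0371 to 8.17), or 7.13 CPM with globin UMIs also left out of the total (0.181 to 39.7). With a library-wide profile subtracted for free RNA, which also removes fibroblast UMIs, the ratio of T cells to fibroblasts stayed within its wide interval. Whether free RNA adds to the T cell level itself was not tested. Among classes of at least 50 cells, *Bdh1* was the only member with its highest level in T cells.

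The 2 regulators were both higher in epithelium than in fibroblasts. *Ppargc1a*, encoding PGC-1α, was at 51.9 CPM in duct-like cells (38.5 to 68.5, 50 UMIs), 39.5 CPM in duct-marked acinar cells (31.2 to 49.4), 25 CPM in mural cells (12.0 to 45.9, 10 UMIs) and 22.9 CPM in acinar cells (19.0 to 27.3, 123 UMIs). In fibroblasts it was at 1.03 CPM (0.632 to 1.60, 20 UMIs), in T cells at 0.919 CPM (2 UMIs), and it had 0 UMIs in macrophages, dendritic cells and red blood cells. The ratios to fibroblasts were 50.2 in duct-like cells (29.4 to 89.0), 24.2 in mural cells (10.1 to 54.1), 22.1 in acinar cells (13.7 to 37.5) and 8.12 in endothelial cells (2.90 to 20, 7 UMIs). With a library-wide profile subtracted, which removes part of the few fibroblast UMIs, the duct-like ratio was 113. *Ppara*, encoding PPARα, held 16.9 CPM in duct-marked acinar cells (11.7 to 23.8, 33 UMIs), 13.6 CPM in acinar cells (10.6 to 17.1, 73 UMIs), 9.35 CPM in duct-like cells (4.27 to 17.7, 9 UMIs) and 2.53 CPM in fibroblasts (1.87 to 3.35, 49 UMIs). It had 0 UMIs in T, B, endothelial, macrophage, dendritic and red blood cells. Set against 3 UMIs in T cells, 1.38 CPM, the acinar level was 9.86-fold higher. The interval of the ratio of acinar to T cells had a lower limit of 7.82. In the few macrophages 3 UMIs would be 17.5 CPM, so their 0 UMIs of *Ppara* do not place them below acinar cells. Acinar cells stood 5.36-fold above fibroblasts (3.68 to 7.86), or 3.16-fold in cells with fewer than 10000 UMIs.

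**Figure D3:**
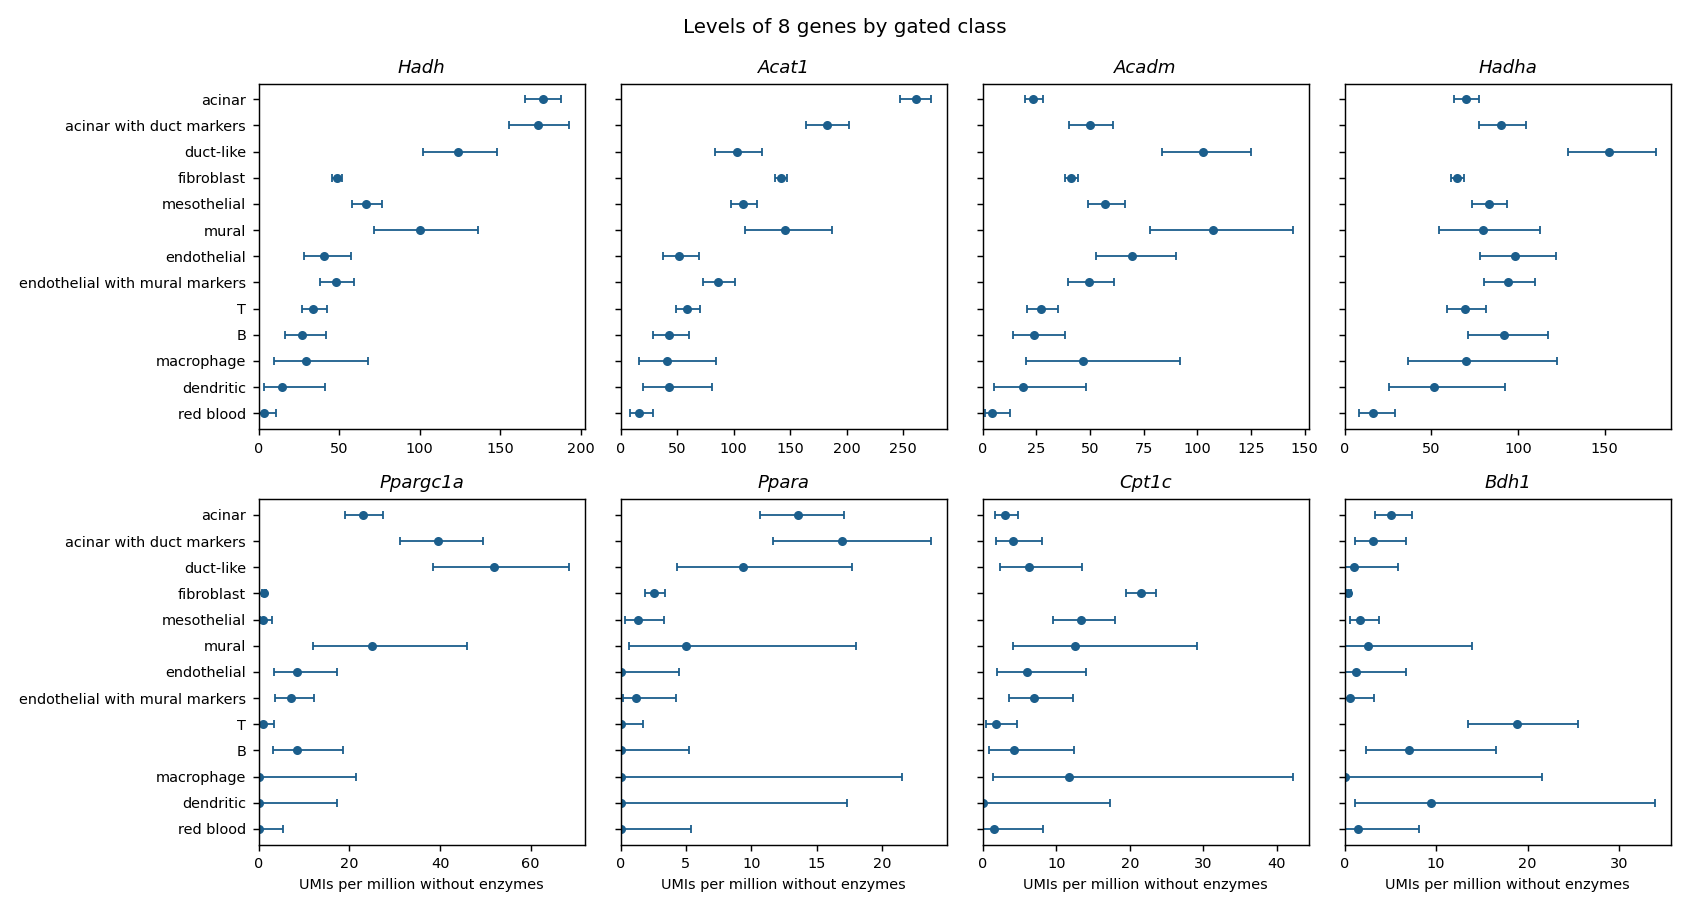
Levels of 8 of the genes in 13 gated classes (horizontal axes, CPM without enzymes), with exact 95% Poisson intervals as bars. *Hadh* and *Acat1* peak in acinar cells, *Hadha* and *Ppargc1a* in duct-like cells, *Cpt1c* in fibroblasts and *Bdh1* in T cells.

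Promoter sequences (250 bases before to 50 after the RefSeq start) were on hand for 27 of the 33 genes. The binding motif of NRF1, a factor that drives nuclear genes of mitochondria, searched as GCGCATGCGC, which is the same on both strands, was present in 3 of them (11.1%), *Ppara*, *Etfdh* and *Acad10*, and in 290 of 27025 genes (1.07%). The 3 sites are shown with the 10 bases on either side and the motif in capitals, 5′ to 3′ on the strand of the gene. They lie at chr15:85735735-85735764 on the plus strand, chr3:79628876-79628905 on the minus strand and chr5:121660499-121660528 on the minus strand of GRCm38.p6.
Ppara: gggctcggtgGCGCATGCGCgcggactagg
Etfdh: tgcttctaggGCGCATGCGCacacgcgaga
Acad10: ggccccgggcGCGCATGCGCtttcgacagc

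Relative to the first transcribed base in RefSeq, the *Ppara* match ran from -31 to -22, the *Etfdh* match from -128 to -119 and the *Acad10* match from -8 to 1. The stretches shown for *Etfdh* and *Acad10* overlap annotated exons of their own genes, and that for *Ppara* overlaps none. The ERR motif, searched as TCAAGGTCA on both strands, and the PPAR direct repeat, searched as AGGTCANAGGTCA on both strands, were each in 0 of the 27 promoters, and in 0.466% and 0.0481% of all genes. The CCAAT box, searched as CCAAT on both strands, was in 11 of 27 (40.7%) and in 41.1% of all genes. The ERR and PPAR motifs share the letters AGGTCA. Of the 3 genes with an NRF1 match, *Ppara* and *Acad10* were at least 2-fold higher in acinar cells than in fibroblasts, with ratios of 5.36 and 2.84. The *Acad10* ratio did not hold at 2-fold. It was 1.12 in cells with fewer than 10000 UMIs and 1.56 with enzyme UMIs in the total. Under the same settings the *Ppara* ratio was 3.16 and 2.95. *Etfdh* was at 16.2 CPM in acinar cells and 12.7 CPM in fibroblasts. *Ppara* and *Acad10* fell under the minimum of 200 UMIs, and 16.8% of all genes above it were at least 2-fold higher in acinar cells. Whether the motif goes with these levels was not tested.

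Acinar cells varied widely in depth. They were split into 211 cells under 3000 UMIs, 362 cells with 3000 or more but fewer than 10000 UMIs and 278 cells with 10000 UMIs or more. The summed level was 1357 CPM (1210 to 1518), 1285 CPM (1215 to 1358) and 1492 CPM (1455 to 1529) in these groups. *Hadh* was at 159, 170 and 179 CPM, and its intervals overlapped. *Acat1* was higher in the deepest cells, 278 CPM (262 to 294) against 202 CPM (175 to 233) in the middle group, and *Etfb* was lower there, 165 CPM (153 to 178) against 207 CPM (180 to 238). *Oxct1* was at 63.1 CPM in the deepest cells (55.7 to 71.2) and 36.8 CPM in the middle group (25.8 to 50.9). *Ppara* had 0 UMIs in the shallowest cells, where the interval reached 16.3 CPM, so a difference from the deeper cells was not detectable for that gene. Citrate cycle genes were also higher in the deepest cells, 1329 CPM against 1050 CPM in the middle group.

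**Figure D4:**
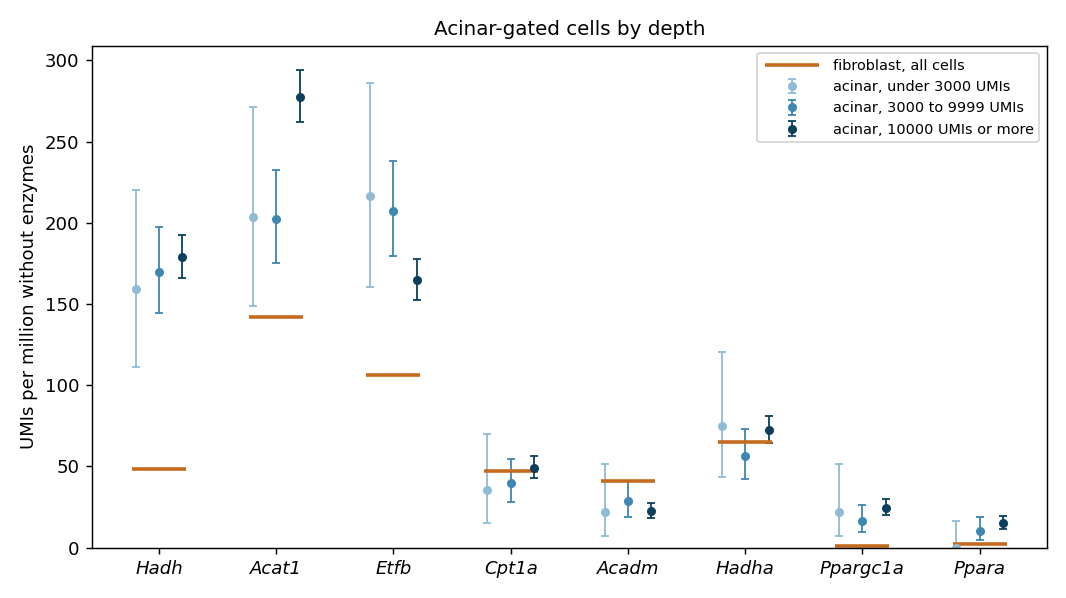
Levels of 8 of the genes in acinar-gated cells split by UMIs per cell (points, light to dark), in CPM without enzymes, with exact 95% Poisson intervals as bars. Orange lines mark the fibroblast level. *Hadh*, *Acat1* and *Etfb* lie above the fibroblast line in the 3 depth groups.

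Among fibroblasts, subsets were taken by pairs of marker genes and by cell cycle genes. The summed level was 1232 CPM in 530 *Pi16* *Pcolce2* cells (1188 to 1278), 1133 CPM in 268 *Rspo3* *Cxcl14* cells (1067 to 1202) and 1089 CPM in 1051 *Mfap4* *Meox2* cells (1053 to 1126). *Etfa* was at 164 CPM in the *Pi16* cells and 95.9 CPM in the *Mfap4* cells, a ratio of 1.71 (1.47 to 1.99). *Cpt1c* was lower in the *Mfap4* cells, 16.2 CPM (12.1 to 21.2), than in the *Pi16* cells, 28.8 CPM (22.4 to 36.5), and the *Rspo3* cells, 30.0 CPM (20.1 to 43.1). *Acat1* was highest in the *Rspo3* cells at 178 CPM (152 to 207), where *Oxct1* was lowest at 60.0 CPM (45.6 to 77.6).

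The 224 cycling fibroblasts, which had UMIs of at least 2 of *Mki67*, *Top2a*, *Cenpf* and *Birc5*, differed in summed level from the 5153 fibroblasts with none by less than counting error (1.02, 0.965 to 1.07). Single members differed more. *Acadl* was at 71.4 CPM in cycling cells and 32.2 CPM in the others, 2.21-fold (1.76 to 2.76), and *Oxct1* at 137 and 84.8 CPM, 1.61-fold (1.37 to 1.88). *Hadh* was at 34.9 and 49.3 CPM, 0.709-fold (0.515 to 0.954), and *Acaa2* at 37.2 and 62.5 CPM, 0.596-fold (0.438 to 0.793).

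Other genes of the pathway, from fixed lists, were counted in the same way, where 16.8% of all genes were at least 2-fold higher and 23.9% lower in acinar cells, 22.5% higher in duct-like cells, 14.7% higher in mural cells, and 17.4% higher and 31.4% lower in T cells. Of 9 measured genes of acyl-CoA activation and transport, 2 were at least 2-fold higher in acinar cells than in fibroblasts and 0 lower, and 4 were higher in duct-like cells. *Acsl1*, the synthetase tied to oxidation in several tissues, was at 41.9 CPM in acinar cells, 37.4 CPM in duct-like cells and 10.2 CPM in fibroblasts. T cells had 2 higher, *Acsl4* and *Acsl5*, and 4 lower. *Acsl4*, which prefers arachidonic acid, was at 99.2 CPM in T cells and 35.9 CPM in fibroblasts. Of 11 peroxisomal genes, 1 was higher and 2 lower in acinar cells. The higher one was *Pecr*, a trans-2-enoyl-CoA reductase of chain elongation, at 67.2 CPM against 9.62 CPM. Of 6 ketone body genes outside the members, 0 were higher and 1 lower in acinar cells.

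Of the 3 malonyl-CoA genes, which set the brake on CPT1, 2 were at least 2-fold higher in acinar cells. *Acacb*, the acetyl-CoA carboxylase at the mitochondrial surface, was at 62.9 CPM in acinar cells (338 UMIs) and 2.22 CPM in fibroblasts (43 UMIs), 28.3-fold (20.6 to 39.8), with 7.27 CPM in duct-like cells. *Mlycd*, the decarboxylase that removes malonyl-CoA, was at 22.5 and 9.88 CPM, and the third gene, *Acaca*, was at 55.3 and 58.0 CPM. Of 10 further regulators, 3 were higher and 1 lower in acinar cells, 2 higher in duct-like cells and 4 higher in mural cells. T cells had 5 higher and 1 lower, macrophages 5 higher and 2 lower, and endothelial cells 3 higher. Of all genes, 17.4%, 18.3% and 18.6% were higher in these 3 classes. *Prdm16*, known as a partner of PGC-1α in brown fat, was at 184 CPM in duct-like cells, 136 CPM in acinar cells, 89.9 CPM in mural cells and 1.81 CPM in fibroblasts. *Prdm16* was also at least 2-fold above fibroblasts in endothelial and T cells. Its lower call in macrophages does not place them, since 3 UMIs would be 17.5 CPM there. *Ppargc1b*, the paralog of *Ppargc1a*, differed from it and was at 42.5 CPM in mural cells, 30.8 CPM in T cells, 15.8 CPM in acinar cells, 4.15 CPM in duct-like cells and 3.83 CPM in fibroblasts.

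PPAR target genes outside the members were mixed. Of 7 measured, 2 were at least 2-fold higher (*Ucp2*, *Pnpla2*) and 4 lower (*Angptl4*, *Plin2*, *Acot1*, *Acot2*) in acinar cells, with a median ratio of 0.345. In duct-like cells 4 were higher (*Ucp2*, *Acot1*, *Pnpla2*, *Hilpda*) and 1 lower (*Angptl4*), with a median ratio of 2.17. There 22.5% of all genes were higher and 15.9% lower. *Ucp2*, a mitochondrial carrier, was at 113 CPM in acinar cells and 12.1 CPM in fibroblasts but at 462 CPM in macrophages. Of the other acyl-CoA dehydrogenases, which act in amino acid breakdown, 2 of 4 were higher in acinar cells. *Ivd*, of leucine breakdown, was at 47.6 and 16.9 CPM, and *Gcdh*, of lysine breakdown, at 24.2 and 6.41 CPM. Of the 17 citrate cycle genes, 2 were higher in acinar cells and 0 lower.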

How the data were processed

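The single library was a 10x Genomics 3′ v3.1 library of pooled pancreata. The authors deposited counts, that is whole UMIs per gene and barcode with no normalization, and the submitters' processing notes name Cell Ranger 7.1.0 and mm10, the UCSC name of GRCm38. Barcodes had at least 500 UMIs. Barcodes with a total between 800 and 100000, both excluded, and a mitochondrial share below 15% were kept. Classes were gated on fixed marker lists, by 2 or more distinct markers and a minimum share of UMIs: 10% for acinar enzymes, 1% for fibroblast, 5% for globin and 0.2% for mural genes, and 0.1% for the other described classes. The thresholds were set after marker values had been seen. Barcodes passing more than 1 gate were set aside as mixed (1116) except acinar with duct, endothelial with mural, and mesothelial, and 244 passed no gate. No doublet caller was run, so doublets were treated by this gating alone. UMIs were summed per class in Python 3.11.15 with numpy 2.4.6 and scipy 1.17.1.

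Genes are named in the text where at least 50 UMIs were gated and the highest class stood at 2-fold or more over fibroblasts, or fibroblasts over acinar cells, with 9 members named whatever their values. The other 13 members fall outside this rule and are named with their values so that each member is accounted for. The members and all lists were chosen with earlier results of these data known. The 2-fold limit is a rule of size and not a test. Intervals and calls were tested on simulated Poisson counts with known folds. Those counts held no variation between cells, so that spread was not covered. Alternatives were enzyme UMIs in the total, other UMI and mitochondrial limits, doubled gate thresholds, means over cells, subtraction of a library-wide profile for free RNA, and no minimum per gene. Some genes of the pathway lists are not reported here.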

Additional observations from a re-analysis of the deposited data

Results flagged for a closer look

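In 8 barcodes that passed the endocrine gate, a class too small to be described in the report, *Hadh* was at 173 CPM (109 to 262) from 22 UMIs. This was 3.59-fold the fibroblast level (2.24 to 5.46) and 0.982-fold the acinar level (0.613 to 1.5). It stood out as a signal in barcodes outside the compared classes, and whether the UMIs lie in endocrine cells or came from acinar RNA was not tested. Digestive enzymes made up 0.551% of the UMIs of these barcodes and 45.5% in acinar cells. *Acat1*, which like *Hadh*, *Etfa* and *Etfb* had its highest level in acinar cells, was at 63.0 CPM in these barcodes (8 UMIs), 0.242-fold the acinar level (0.104 to 0.477).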

How the results depend on the processing

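Of 138 recomputed summed ratios and counts, 110 stayed within their limits, 27 moved and 1 reversed. Of 840 single gene ratios, 780 stayed, 54 moved and 6 reversed. A ratio stayed if it lay in its own counting interval, which is wide for genes with few UMIs. Outside acinar cells, enzyme UMIs in the total hardly change a ratio by construction, with factors of 0.984 in duct-like and 0.998 in T cells. The tally therefore does not measure how stable the ratios are. With enzyme UMIs in the total, the acinar summed ratio reversed to 0.684, 10 members were 2-fold lower instead of 1, and the acinar ratios of *Acadl* and *Eci1* reversed to 0.711 and 0.857, by construction of the total. With fewer than 10000 UMIs per cell, the summed ratio was 1.11 in acinar and 1.20 in duct-like cells, 5 members were lower in acinar cells, and *Acadl* in acinar cells (0.925) and *Acaa1a* in duct-like cells (0.677) reversed. As means over cells, the summed ratio was 1.17 in acinar, 1.33 in duct-like and 0.799 in endothelial cells, lower members were 2 in acinar, 1 in duct-like, 4 in mural, 5 in endothelial and 10 in macrophage cells, and *Acat1* in duct-like cells (1.02) and *Acadm* in endothelial cells (0.982) reversed. Without the minimum of 200 UMIs, higher members were 8 in acinar, 13 in duct-like, 7 in mural, 5 in endothelial and 2 in T cells, and lower members 2 in acinar, 4 in mural, 4 in endothelial and 11 in macrophage cells, since 6 more genes enter. Higher members were 2 in mural cells with doubled gate thresholds, 1 in endothelial and 4 in macrophage cells with more than 1500 UMIs or under 5% mitochondrial UMIs, and 4 in macrophages with the library-wide profile subtracted. The shares over all genes were not recomputed under these settings, so the changed counts do not set the members apart. For changes other than those of the total and of the minimum, the cause was not tested. Values of classes under 60 cells and of genes under 10 UMIs in a class are limited by depth. No paired analysis was possible because there is 1 library.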
